A study of Mus musculus with 16 samples.

Results

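The genes described here make microRNAs or help to make them: Dicer1, Drosha, Dgcr8, Xpo5, Tarbp2 and Prkra. They were chosen by symbol, and every probe set that the array annotation gives to 1 of these 6 symbols was taken, 15 of the 45101 probe sets on the Affymetrix Mouse430_2 array. The samples were whole adrenal glands of mouse embryos on a C57BL/6 background. They fell into 4 groups of 4 arrays: Dicer knockout (KO) at E16.5, control at E16.5, KO at E15.5 and control at E15.5. KO embryos carried the Sf1-Cre transgene and Dicer lox/lox alleles. Control embryos were littermates without Cre, and the labels call them WT without giving their Dicer alleles. The parents were Sf1-Cre/Dicerlox/lox, Sf1-Cre/Dicer+/lox and Dicerlox/lox animals, and no group received a treatment. Cre is made only in cells that use Sf1 (Nr5a1), which include the adrenal cortex, so cells of the gland that do not use it kept Dicer. Glands were pooled by genotype within a litter, from 4 litters per stage, and each array holds 1 pool.

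MicroRNAs are short RNAs that lower the use of messenger RNAs they pair with. Drosha and its partner Dgcr8, together the microprocessor, cut a hairpin out of a long primary transcript in the nucleus, and Xpo5 carries the hairpin to the cytoplasm. Dicer, which the Dicer1 gene encodes, cuts the loop off the hairpin, with Tarbp2 (also called TRBP) or Prkra (also called PACT) bound to it, and 1 strand of the product is then loaded into an Argonaute protein. Mice without Dicer in Sf1-using cells lose the adrenal cortex before birth, which is background from earlier work and not a result of these arrays.

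Promoter sequences are shown for the member that was deleted, Dicer1, and for the member whose transcript rose, Tarbp2. Each is a window of 300 bases that spans the annotated start; they come from RefSeq (GRCm38.p6) and are written 5′ to 3′ on the strand of the gene. Capitals mark the letters CCAAT, or ATTGG for the same letters on the other strand.
Tarbp2 promoter, chr15:102517942-102518241, plus strand: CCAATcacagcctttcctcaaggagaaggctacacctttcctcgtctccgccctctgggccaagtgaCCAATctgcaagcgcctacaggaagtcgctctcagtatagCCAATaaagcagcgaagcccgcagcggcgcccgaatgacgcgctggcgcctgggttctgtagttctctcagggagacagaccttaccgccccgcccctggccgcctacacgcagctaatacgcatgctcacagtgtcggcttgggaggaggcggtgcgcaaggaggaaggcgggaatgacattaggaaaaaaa
Dicer1 promoter, chr12:104751903-104752202, minus strand: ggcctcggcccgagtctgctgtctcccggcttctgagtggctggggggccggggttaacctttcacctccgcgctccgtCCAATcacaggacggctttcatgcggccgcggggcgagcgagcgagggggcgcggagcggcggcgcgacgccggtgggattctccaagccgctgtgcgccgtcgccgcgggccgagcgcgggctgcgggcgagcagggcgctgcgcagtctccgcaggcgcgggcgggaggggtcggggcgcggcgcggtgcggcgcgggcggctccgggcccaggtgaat
The Tarbp2 window held 3 matches to CCAAT and the Dicer1 window held 1. The other members' windows, searched on both strands as well, held 3 matches in Drosha, 4 in Dgcr8 and 0 in both Xpo5 and Prkra. Of 32851 mouse promoters of this length 37.4% held the letters at least once. The letters GGGCGG, the core of the GC box, occurred 3 times in Tarbp2, 2 times in Dicer1, 2 times in Dgcr8, 1 time in Xpo5, 5 times in Prkra and 0 times in Drosha, and in 35.7% of all promoters. The letters CACGTG occurred in none of the 6 windows and in 7.15% of all promoters. The Dicer1 window was 77.3% G and C and the Tarbp2 window 59%, against a median of 52.7% over all promoters. These matches are runs of letters, and no binding was measured.

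The transcript of Dgcr8 is itself cut by Drosha in mammals, at hairpins inside it, so the hairpins that lie in the gene on its own strand are shown. RefSeq (GRCm38.p6) lists 2 of them. Capitals mark the mature arms.
Mir1306 hairpin, chr16:18284239-18284317, minus strand: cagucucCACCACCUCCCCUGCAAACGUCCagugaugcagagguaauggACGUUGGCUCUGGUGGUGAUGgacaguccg
mir-3618 hairpin (listed as Gm24572), chr16:18284550-18284637, minus strand: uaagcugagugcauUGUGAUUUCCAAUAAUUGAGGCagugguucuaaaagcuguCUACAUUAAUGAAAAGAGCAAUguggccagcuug
The arms are miR-1306-5p and miR-1306-3p in the first hairpin, and miR-3618-5p and miR-3618-3p in the second. The array measures long transcripts and gave no value for these small RNAs.

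The values are log2 signals, so that a difference of 1 is a doubling, and differences are KO minus control throughout. An array stood apart in RNA quality: control replicate 2 at E16.5 had a 3′ minus 5′ signal of the control probe sets of 3.15, against 0.19 to 1.62 on the other 15, and the E16.5 values of Tarbp2, Dicer1 and Prkra, and the pathway calls that were lost without it, are also given without it. No 2 arrays held identical values. Levels of different probe sets cannot be ranked against each other, because each probe set has its own brightness. Of the 15 probe sets, 12 lay above the 40th percentile of their array on at least 4 arrays and were tested; each of them lay above it on all 16 arrays. The other 3 were dim: 2 of the 4 Dgcr8 probe sets and 1 of the 2 Prkra probe sets. At E16.5, 3 of the 12 passed the test (limma, adjusted p under 0.05 over all probe sets tested): both probe sets of Tarbp2 were higher and 1 of Dicer1 was lower. Over all 27838 probe sets tested, 7.78% passed at that stage, 4.84% higher and 2.95% lower. At E15.5, 2 of the 12 passed, both of them Tarbp2 and both higher, against 4.91% of all probe sets, 2.93% higher and 1.98% lower. The median difference of the 12 tested probe sets was 0.09 at E16.5 and 0.10 at E15.5, beside 0.06 and 0.05 over all probe sets tested.

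**Figure D1:**
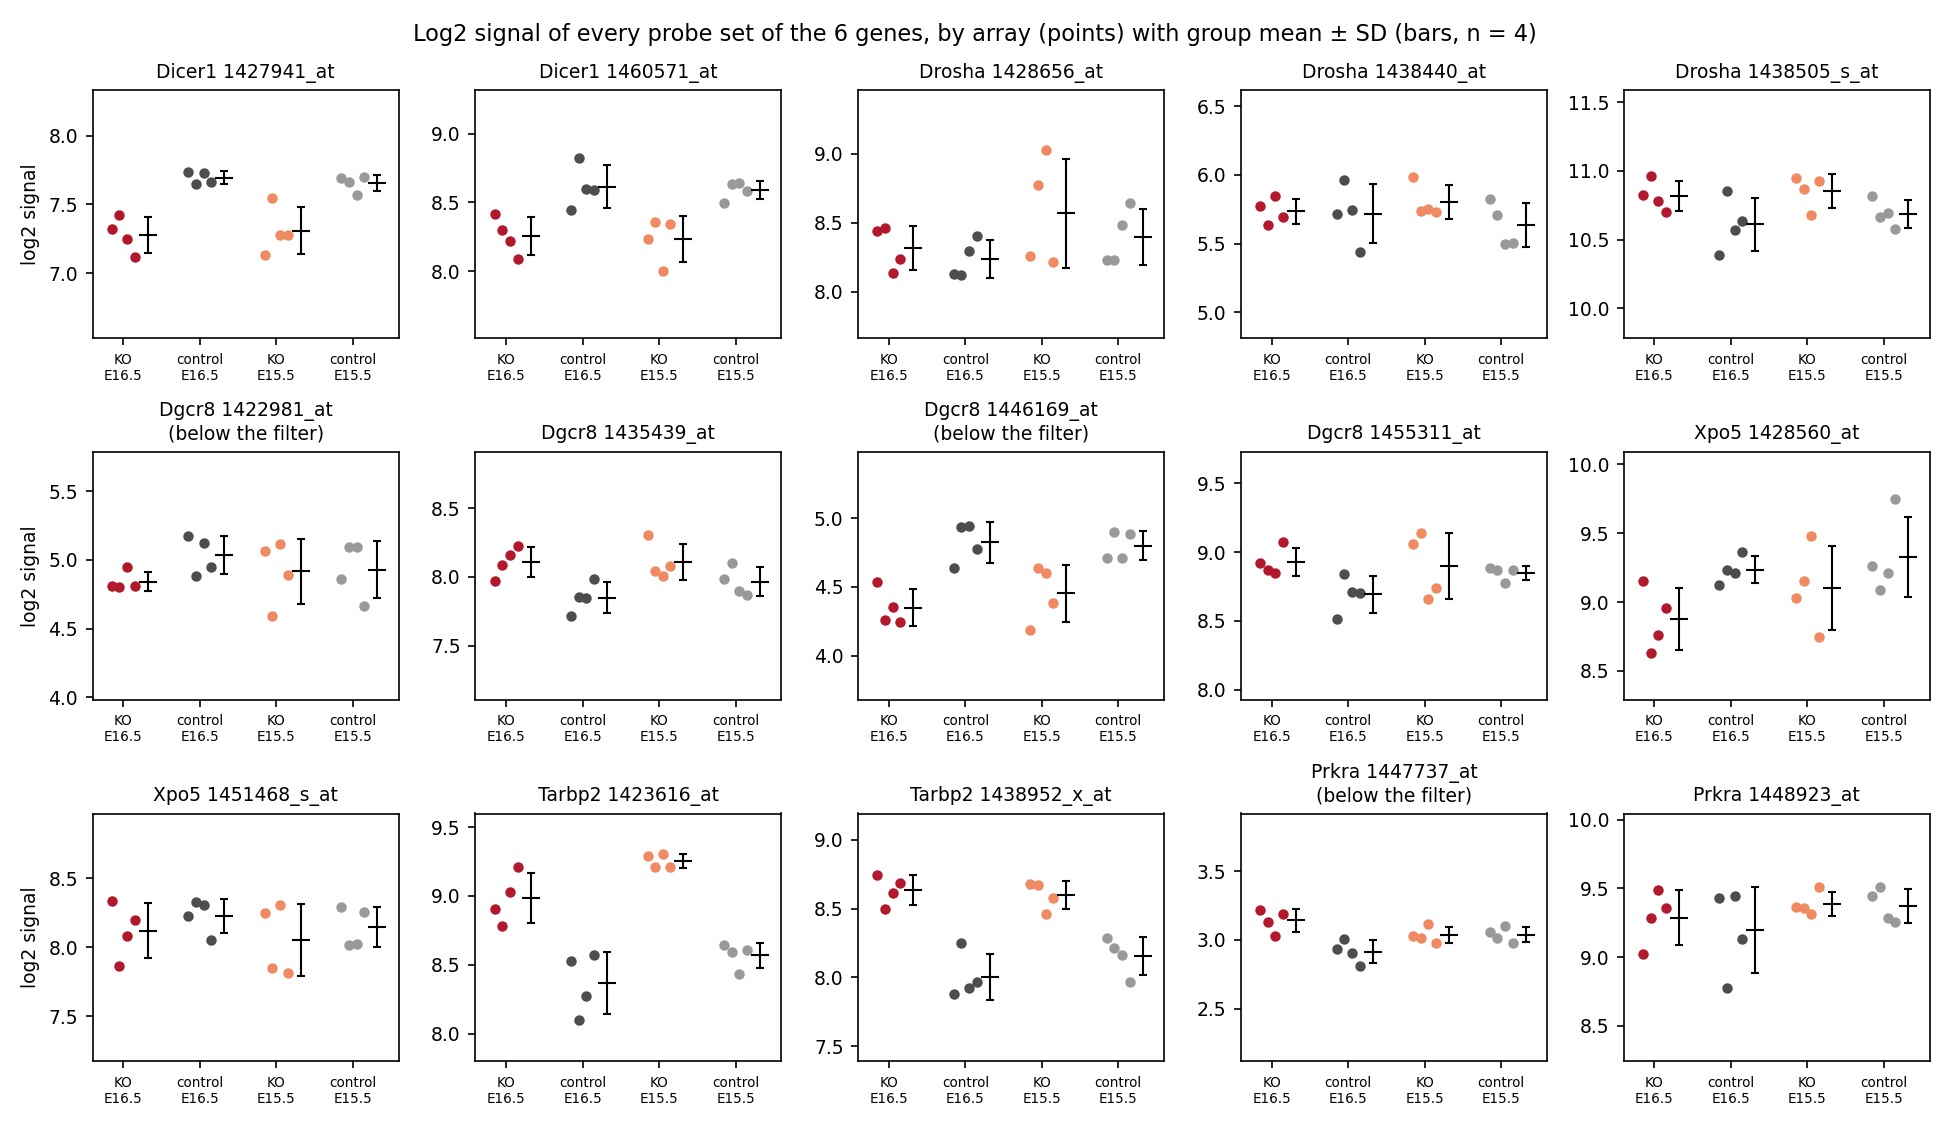
Log2 signal of the 15 probe sets of the 6 genes on every array, with those below the filter marked in their titles. Each panel is a probe set, each point is an array (a pool of glands from a litter), and the bar beside the points is the mean with the SD of the 4 arrays of a group. In the Tarbp2 panels all KO points lie above the control points of their stage, and in the Dicer1 panels all lie below.

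Dicer1 was the targeted gene, and the array carries 2 probe sets for it. The sources used here do not say where either lies relative to the floxed part, so neither alone shows how much of the gene was lost. Probe set 1427941_at had 7.32, 7.42, 7.25 and 7.12 in the KO pools at E16.5, against 7.74, 7.65, 7.73 and 7.66 in control pools. At E15.5 it had 7.13, 7.55, 7.28 and 7.28 in KO pools, against 7.69, 7.66, 7.57 and 7.70 in control pools. The groups did not overlap at either stage, and the nearest approach was KO replicate 2 at E15.5, close below the lowest control. The fall was 0.42 on the log2 scale at E16.5 (7.28 ± 0.13 in KO and 7.69 ± 0.04 in control, SD, n = 4 each; 95% interval of the difference -0.63 to -0.21; limma adjusted p = 0.0153), a signal 0.749 times that of control. At E15.5 the difference was -0.35 (interval -0.55 to -0.14), with a limma adjusted p of 0.0559, and it did not pass. Without KO replicate 4, the lowest KO pool of E16.5, the adjusted p at that stage was 0.0582, and with a fit of the E16.5 arrays alone it was 0.0565.

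The second Dicer1 probe set, 1460571_at, was also lower in KO and did not pass. It had 8.42, 8.30, 8.22 and 8.09 in KO pools at E16.5, against 8.45, 8.83, 8.60 and 8.59 in control pools. At E15.5 it had 8.24, 8.36, 8.00 and 8.34 in KO pools, against 8.50, 8.63, 8.64 and 8.58 in control pools. All KO pools lay below all control pools at both stages, although control replicate 1 at E16.5 lay only just above the highest KO pool. The difference was -0.36 at E16.5 (interval -0.59 to -0.13; limma adjusted p = 0.0546) and -0.35 at E15.5 (interval -0.58 to -0.12; limma adjusted p = 0.078). These 3 results that missed the threshold passed it under some settings. After quantile normalization 1460571_at passed at E16.5 (-0.45, adjusted p = 0.0348) and 1427941_at at E15.5 (-0.40, adjusted p = 0.0326). With arrays centred on the 75th percentile the same 2 passed (adjusted p = 0.039 and 0.0343), as they did with no filter (0.036 and 0.0288) and with array weights (0.000561 and 0.0243). At E15.5 1460571_at passed with no filter (adjusted p = 0.0434) and with array weights (0.046). Groups of 4 that do not overlap were found for 13.7% of all tested probe sets at E16.5, 4.89% of them with KO lower, and for 13.5% at E15.5, 4.82% with KO lower. In a whole gland, fewer cells of a type and less RNA per cell cannot be told apart.

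**Figure D2:**
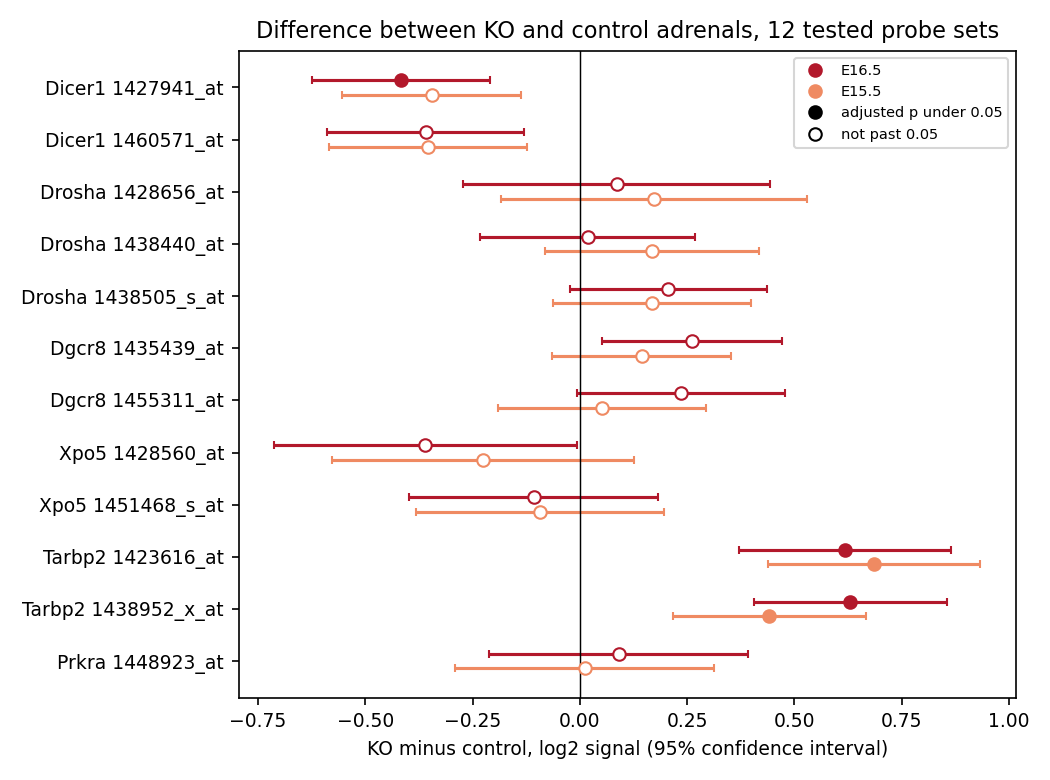
KO minus control (log2) for the 12 tested probe sets at E16.5 and E15.5. Points are the limma estimates and bars their 95% intervals, and a filled point passed at an adjusted p under 0.05. The Tarbp2 intervals lie wholly above 0 at both stages and the Dicer1 intervals wholly below.

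Tarbp2, the double-stranded RNA binding partner of Dicer that is also a subunit of the complex that loads Argonaute, was the only member whose 2 probe sets passed at both stages. Probe set 1423616_at had 8.91, 8.79, 9.03 and 9.21 in KO pools at E16.5, against 8.52, 8.10, 8.27 and 8.57 in control pools. At E15.5 it had 9.29, 9.21, 9.30 and 9.21 in KO pools, against 8.64, 8.59, 8.43 and 8.61 in control pools. At both stages the lowest KO pool lay above the highest control pool, and at E15.5 the 4 KO pools spanned less than 0.1. The rise was 0.62 at E16.5 (8.98 ± 0.18 in KO and 8.37 ± 0.22 in control, SD, n = 4 each; interval 0.37 to 0.87; limma adjusted p = 0.00359), or 1.53-fold. At E15.5 it was 0.69 (9.25 ± 0.05 in KO and 8.57 ± 0.09 in control; interval 0.44 to 0.93; limma adjusted p = 0.00232), or 1.61-fold.

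The second Tarbp2 probe set, 1438952_x_at, has a suffix that Affymetrix gives to sets with probes that can also match other transcripts. It had 8.74, 8.50, 8.61 and 8.69 in KO pools at E16.5, against 7.88, 8.25, 7.92 and 7.97 in control pools. At E15.5 it had 8.68, 8.67, 8.46 and 8.58 in KO pools, against 8.29, 8.21, 8.16 and 7.96 in control pools. The groups were again apart at both stages, by the narrowest margin at E15.5. The rise was 0.63 at E16.5 (8.63 ± 0.11 in KO and 8.00 ± 0.17 in control; interval 0.41 to 0.85; limma adjusted p = 0.00145), or 1.55-fold. At E15.5 it was 0.44 (8.60 ± 0.10 in KO and 8.15 ± 0.14 in control; interval 0.22 to 0.67; limma adjusted p = 0.0222), or 1.36-fold. This last call was the least secure of the 4. It did not pass with a replicate block by pool number, nor without both E15.5 pools numbered 1. Its adjusted p was 0.124 after quantile normalization of the arrays, 0.142 when arrays were centred on their 75th percentile, and 0.0551 to 0.0715 without KO replicate 1, 2 or 4 or control replicate 3 or 4 of E15.5. Groups apart with KO higher were found for 8.82% of all tested probe sets at E16.5 and for 8.64% at E15.5.

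The KO arrays were slightly brighter as a whole, with means over all probe sets of 6.35 to 6.37, against 6.31 to 6.32 in control arrays. Of the probe sets that passed at E16.5, 62.1% were higher in KO, beside 48.6% after quantile normalization and 38.6% after centring on the 75th percentile. At E15.5 the share was 59.7%, beside 51.2% and 39.9%. A further test asked for a difference, in either direction, larger than an allowance of 0.159 at E16.5 and 0.167 at E15.5. The allowance was the median absolute difference between genotypes of the probe sets below the filter. It is larger than the median difference over all tested probe sets, 0.06 at E16.5 and 0.05 at E15.5. With this allowance, the adjusted p of Tarbp2 1423616_at was 0.0259 at E16.5 and 0.0182 at E15.5. With the same allowance, that of 1438952_x_at was 0.0119 at E16.5 and 0.241 at E15.5. Dicer1 1427941_at did not pass with it, at an adjusted p of 0.163 at E16.5 and 0.576 at E15.5. The allowance asks for a larger difference and does not correct the offset.

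Without control replicate 2 of E16.5, the array with the high 3′ signal, Tarbp2 rose by 0.53 (1423616_at, adjusted p = 0.00796) and 0.71 (1438952_x_at, adjusted p = 0.000452) at E16.5. Dicer1 1427941_at then fell by 0.43 (adjusted p = 0.0188), and 1460571_at differed by -0.29 (adjusted p = 0.113).

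Tarbp2 shares its place in the genome with other genes. Map3k12, which encodes a kinase, overlaps it in the RefSeq annotation, so signal from the pair could be mixed where probes match both. Whether it is was not tested. Map3k12 1456565_s_at fell by 0.63 at E15.5 (limma adjusted p = 0.0213) and differed by -0.17 at E16.5 (adjusted p = 0.593), and the other 2 tested probe sets were higher in KO, by 0.27 each at E16.5 and by 0.13 and 0.41 at E15.5, without passing. Of the next gene at lower coordinates, Pcbp2, which encodes an RNA-binding protein, probe set 1445381_at rose by 0.53 at E16.5 (adjusted p = 0.00736) and by 0.83 at E15.5 (adjusted p = 0.000349). The other 2 Pcbp2 probe sets differed by -0.01 and -0.07 at E16.5 and by -0.03 and -0.16 at E15.5, and did not pass. Npff, the next gene at higher coordinates, differed by -0.03 and -0.09 at E16.5 and E15.5.

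Prkra, the other double-stranded RNA binding partner of Dicer and also an activator of the kinase PKR, did not pass at either stage. Probe set 1448923_at had 9.02, 9.28, 9.49 and 9.36 in KO pools at E16.5, against 9.43, 8.78, 9.45 and 9.14 in control pools. At the earlier stage, E15.5, the values were 9.36, 9.36, 9.31 and 9.51 in KO pools, against 9.44, 9.51, 9.28 and 9.26 in control pools. The groups overlapped at both stages, and the lowest value of all 16 belonged to control replicate 2 at E16.5, the array with the high 3′ signal. The difference was 0.09 at E16.5 (interval -0.21 to 0.39; limma adjusted p = 0.798) and 0.01 at E15.5 (interval -0.29 to 0.31; adjusted p = 0.984), and without that array it was -0.05 at E16.5 (adjusted p = 0.86). A rise as large as that of Tarbp2 1423616_at lay outside the intervals of all arrays at both stages. The dim Prkra probe set, 1447737_at, was at 3.03 to 3.22 in KO pools and 2.81 to 3.01 in control pools at E16.5, below the 40th percentile of every array. These groups did not overlap, and in a fit with no filter the adjusted p was 0.0613 at E16.5 and 0.988 at E15.5, where the difference was -0.00. Of all tested probe sets, 8.82% had groups apart with KO higher at E16.5, and the share was not taken below the filter.

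The ratio of Tarbp2 to Prkra within an array is free of a shift common to the whole array. These ratios were chosen after the values were seen, so they describe the same values again, and 4 of them were tested (exact permutation test, two-sided, smallest possible p of 0.0286 for 4 against 4 arrays). The log2 ratio of Tarbp2 1423616_at to Prkra was higher in KO than in control by 0.53 at E16.5 and by 0.67 at E15.5 (exact permutation p = 0.0286 each; 0.0381 after Benjamini-Hochberg adjustment over the 4). With 1438952_x_at in its place the ratio was higher by 0.43 at E15.5 (exact permutation p = 0.0286, adjusted 0.0381). At E16.5 it was higher by 0.54 with overlap (exact permutation p = 0.114): the KO pools were at -0.28, -0.79, -0.88 and -0.67, against -1.55, -0.53, -1.53 and -1.17 in control pools, where control replicate 2 was the high one. Without that array it was higher by 0.76, and the ratio of 1423616_at by 0.58, and no test was run on these values.

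**Figure D3:**
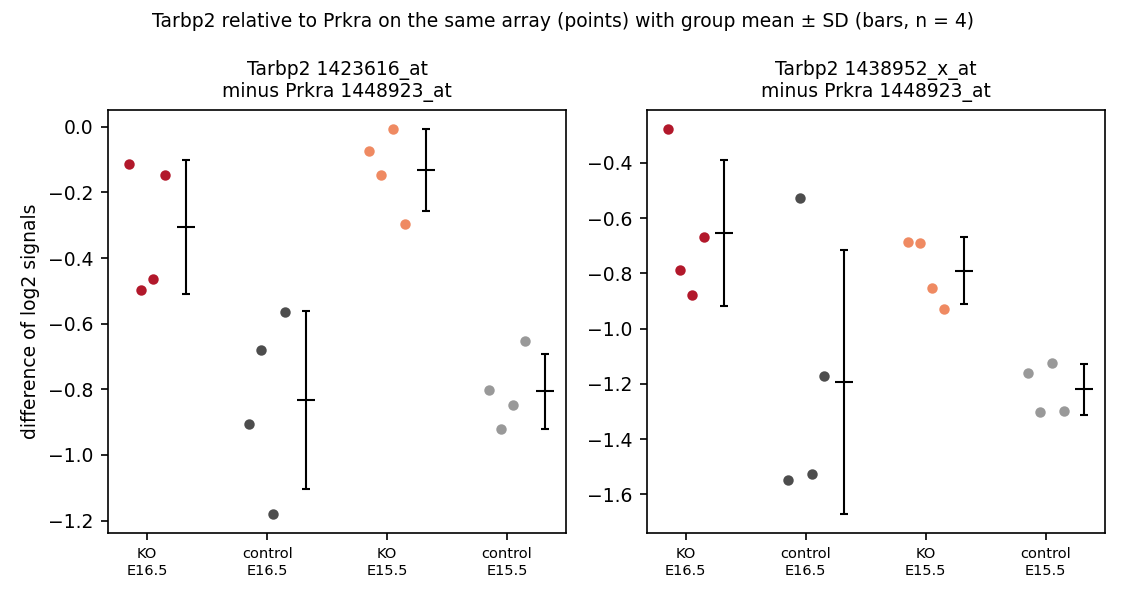
Log2 ratio of Tarbp2 to Prkra on every array, by group, with 1 panel for each Tarbp2 probe set. Each point is an array, and each bar is the mean with the SD of 4 arrays. The groups of 1438952_x_at overlap at E16.5 through control replicate 2, and the other KO groups lie above their controls.

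Drosha, the nuclear enzyme that makes the first cut, has 3 probe sets, and none passed. At E16.5 1438505_s_at had 10.83, 10.97, 10.78 and 10.70 in KO pools, against 10.39, 10.85, 10.57 and 10.64 in control pools. The E15.5 values were 10.95, 10.87, 10.68 and 10.93 in KO pools, against 10.81, 10.66, 10.69 and 10.57 in control pools. The groups overlapped at both stages, and the KO mean was the higher, by 0.21 at E16.5 (interval -0.02 to 0.44; limma adjusted p = 0.304) and 0.17 at E15.5 (interval -0.06 to 0.40; adjusted p = 0.479). Probe set 1428656_at was more scattered, most of all at E15.5, where the KO pools had 8.26, 8.78, 9.03 and 8.21, against 8.23, 8.23, 8.48 and 8.64 in control pools. It differed by 0.09 at E16.5 (interval -0.27 to 0.44) and by 0.17 at E15.5 (interval -0.18 to 0.53). Probe set 1438440_at, the dimmest tested, ranged from 5.63 to 5.84 in KO pools and from 5.44 to 5.97 in control pools at E16.5. At E15.5 it ranged from 5.73 to 5.99 in KO pools and from 5.49 to 5.83 in control pools, and its differences were 0.02 and 0.17 at E16.5 and E15.5.

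Dgcr8, which binds the primary transcript and holds Drosha in place on it, did not pass in either of its tested probe sets. Probe set 1435439_at had 7.97, 8.09, 8.16 and 8.23 in KO pools at E16.5, against 7.71, 7.85, 7.84 and 7.99 in control pools. Its difference was 0.26 (interval 0.05 to 0.47; unadjusted p = 0.0176, limma adjusted p = 0.127), with an overlap only between the lowest KO pool and the highest control pool. Probe set 1455311_at had 8.92, 8.87, 8.85 and 9.07 in KO pools at E16.5, against 8.51, 8.84, 8.71 and 8.70 in control pools. These groups did not overlap, as in 8.82% of all tested probe sets with KO higher at that stage. The difference was 0.24 (interval -0.01 to 0.48; limma adjusted p = 0.253). At E15.5 both probe sets overlapped, with differences of 0.14 (interval -0.07 to 0.35) and 0.05 (interval -0.19 to 0.29).

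The dim Dgcr8 probe sets went the other way. Probe set 1446169_at was below the 40th percentile on every array and had 4.54, 4.26, 4.35 and 4.25 in KO pools at E16.5, against 4.63, 4.94, 4.95 and 4.78 in control pools. At the earlier stage, E15.5, the values were 4.19, 4.64, 4.60 and 4.38 in KO pools, against 4.71, 4.90, 4.71 and 4.88 in control pools. KO was lower without overlap at both stages, by -0.48 and -0.35, and in a fit with no filter on dim probe sets the limma adjusted p was 0.0129 at E16.5 and 0.0661 at E15.5. Of all tested probe sets, 4.89% at E16.5 and 4.82% at E15.5 had groups apart with KO lower. That share was not taken for probe sets below the filter. Probe set 1422981_at, above the 40th percentile on 3 of the 16 arrays, differed by -0.19 at E16.5 and -0.01 at E15.5. The 4 Dgcr8 probe sets thus gave differences of both signs at E16.5, with the brighter pair above 0 and the dim pair below.

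Xpo5, the exporter of hairpin precursors, had 2 tested probe sets, both with a lower mean in KO at both stages, and neither passed. Probe set 1428560_at had 9.15, 8.63, 8.76 and 8.95 in KO pools at E16.5, against 9.13, 9.23, 9.21 and 9.36 in control pools. KO replicate 1 fell among the controls and the other 3 lay below them. The difference was -0.36 (interval -0.71 to -0.01; unadjusted p = 0.0461, limma adjusted p = 0.227), and at E15.5 it was -0.23 (interval -0.58 to 0.13; adjusted p = 0.552). Probe set 1451468_s_at differed by -0.11 at E16.5 (interval -0.40 to 0.18) and by -0.09 at E15.5 (interval -0.38 to 0.20), with overlap at both stages.

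A member that did not pass was not shown to be level in the 2 genotypes. The intervals of Drosha, Dgcr8, Xpo5 and Prkra in the tested probe sets left room for differences of up to 0.53 above 0 and 0.71 below it. At an unadjusted p under 0.05, 6 of the 12 tested probe sets differed at E16.5 and 4 at E15.5. Of all 27838 probe sets tested, 5859 did so at E16.5 and 4883 at E15.5.

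No member was shown to respond differently at the 2 stages. The difference of the KO effects, E16.5 minus E15.5, passed for 0 of the 12 tested probe sets in limma, and at an unadjusted p under 0.05 for 0 of them. It passed for 0 of all 27838 probe sets, 0% of those tested, and 495 had an unadjusted p under 0.05. For the 12 it ranged from -0.15 to 0.19, the highest being Tarbp2 1438952_x_at with an interval of -0.13 to 0.51. For Dicer1 it was -0.07 (1427941_at, interval -0.37 to 0.22) and -0.01 (1460571_at, interval -0.33 to 0.32). Differences between stages of the size of the KO effects themselves therefore lay within some of these intervals.

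Within a genotype, no member passed between the stages. In control glands at E16.5 against E15.5, 0 of the 12 passed in limma and 0 had an unadjusted p under 0.05, with differences of -0.20 to 0.08; over all probe sets 0.00718% passed. In KO glands 0 of the 12 passed, against 0.471% of all probe sets. At an unadjusted p under 0.05, 1728 of all 27838 differed in control glands and 2046 in KO glands. Of the 12, 1 did so in KO glands. That was Tarbp2 1423616_at, lower at E16.5 than at E15.5 in KO by -0.27 (8.98 ± 0.18 at E16.5 and 9.25 ± 0.05 at E15.5, SD, n = 4 each; interval -0.52 to -0.02; adjusted p = 0.614). Its other probe set differed by 0.04 in the same comparison.

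Other genes of the pathway were read from 6 lists of 48 genes, 46 of them on the array and 43 tested, through 125 tested probe sets. At E16.5, 14 of these were higher (11.2%, against 4.84% of all tested probe sets) and 2 lower in KO (1.6%, against 2.95%). At E15.5, 11 were higher (8.8%, against 2.93%) and 1 lower (0.8%, against 1.98%). Probe sets of 1 gene are not independent. By gene, 7 of the 43 had a higher probe set and 2 a lower one at E16.5, and 6 and 1 at E15.5. The list of Argonaute proteins, which hold the microRNA, and Tnrc6 proteins, which bind Argonaute and silence the target, had 24 tested probe sets, of which 10 were higher at E16.5 and 6 at E15.5, and 0 were lower at either. It thus held 10 of the 14 higher probe sets at E16.5 and 6 of the 11 at E15.5. In the other lists, 0% to 8.7% were higher at E16.5 and 0% to 9.09% at E15.5, so the pooled shares do not describe the pathway as a whole. The median difference of the Argonaute and Tnrc6 list was 0.49 at E16.5 and 0.39 at E15.5, beside 0.06 and 0.05 over all probe sets.

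Within it, 7 of the 8 tested probe sets of Tnrc6a rose at E16.5, by 0.68 to 0.97, and 5 rose at E15.5. The eighth, 1457295_at, differed by 0.51 at E16.5 (adjusted p = 0.152) and by -0.17 at E15.5 (adjusted p = 0.745), and the ninth on the array was below the filter. Tnrc6a 1434898_at rose by 0.70 at E16.5 (9.68 in KO and 8.99 in control on average; limma adjusted p = 0.000341) and by 0.63 at E15.5 (adjusted p = 0.00125). Ago2, the Argonaute that can cut its target, rose in 1455294_at by 0.50 at E16.5 (adjusted p = 0.0333) and by 0.54 at E15.5 (adjusted p = 0.0328), and its other 3 probe sets did not pass. Tnrc6b 1436982_at rose by 0.71 (adjusted p = 0.0194) and Tnrc6c 1460363_at by 0.34 (adjusted p = 0.0369) at E16.5, and neither passed at E15.5. With 1 probe set per gene, that of highest mean, 2 of the 7 genes passed at E16.5 (Tnrc6a and Tnrc6b) and 0 at E15.5. Across the settings tried, the list's count ranged from 2 to 15 at E16.5 and from 0 to 9 at E15.5. Without control replicate 2 of E16.5 it was 9 at E16.5: Ago2 1455294_at then differed by 0.48 (adjusted p = 0.0605) and no longer passed.

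Among the microprocessor partners, Ddx5, an RNA helicase, was the one gene that passed, in 2 of 23 probe sets at E16.5 (8.7%) and 1 at E15.5 (4.35%). These shares are near those of all tested probe sets, 7.78% and 4.91%, and so is that of the export list below (6.67% at each stage). Ddx5 1433810_x_at rose by 0.64 at E16.5 (adjusted p = 0.00175) and by 0.51 at E15.5 (adjusted p = 0.012). Ddx5 1433809_at rose by 0.52 at E16.5 (adjusted p = 0.0333). These were the 2 dimmest of its 6 probe sets, and the other 4 differed by -0.04 to 0.12 at E16.5 without passing. The control means of 1433809_at were 4.80 at E16.5 and 4.70 at E15.5. Both lay below the level set by the filter, which was 5.11 to 5.21 across the arrays. Its KO means were 5.31 and 5.14. The control means of 1433810_x_at, 5.07 and 5.11, were near that level. The Ddx5 calls, and the shares that count them, thus rest on signals close to the filter. Of the export list, which holds Ran, its regulators and other exportins, 1 of 15 passed at each stage, Rangap1 1423749_s_at, the activator of Ran's GTPase, by 0.58 at E16.5 (adjusted p = 0.0089) and 0.51 at E15.5 (adjusted p = 0.0241). The other 2 Rangap1 probe sets differed by 0.23 and 0.30 at E16.5 and by 0.28 and 0.41 at E15.5, and did not pass.

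Of the other double-stranded RNA binding genes, 1 of 22 probe sets was higher and 2 lower at E16.5, and 2 were higher and 1 lower at E15.5. That is 13.6% at each stage, against 7.78% of all tested probe sets at E16.5 and 4.91% at E15.5. Adarb1 1434932_at, an RNA-editing enzyme, rose by 0.65 at E16.5 (adjusted p = 0.00684) and by 0.96 at E15.5 (adjusted p = 0.000541), and Adarb1 1421480_a_at rose by 0.51 at E15.5 (adjusted p = 0.0195). The third, Adarb1 1443968_at, differed by -0.01 at E16.5 and 0.23 at E15.5 and did not pass. The control means of Adarb1 1421480_a_at were 4.74 at E16.5 and 4.73 at E15.5, below the filter level of 5.11 to 5.21. Its KO means were 5.08 and 5.24, so its call at E15.5, counted above, also rests on signals close to the filter. Stau2 1425534_at, an RNA transport protein, fell by 0.59 at E16.5 (adjusted p = 0.018) and by 0.55 at E15.5 (adjusted p = 0.0375). The other 2 Stau2 probe sets differed by -0.16 and -0.11 at E16.5 and by -0.12 and 0.02 at E15.5, and did not pass. Strbp 1452061_s_at, a binding protein of double-stranded RNA in germ cells, fell by 0.55 at E16.5 (adjusted p = 0.0244), and without control replicate 2 differed by -0.49 (adjusted p = 0.053). Its other 5 tested probe sets differed by -0.29 to 0.04 at E16.5 and did not pass. Of the precursor regulators, 0 of 23 passed at E16.5, where 5 had an unadjusted p under 0.05, and 1 passed at E15.5: Adar 1425405_a_at, another RNA-editing enzyme, by 0.52 (adjusted p = 0.013), while its other 2 probe sets differed by -0.11 and -0.13. Of the turnover list, 0 of 18 passed at either stage in limma, and 0 had an unadjusted p under 0.05. Over all 27838 probe sets tested, 5859 had an unadjusted p under 0.05 at E16.5 and 4883 at E15.5.

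**Figure D4:**
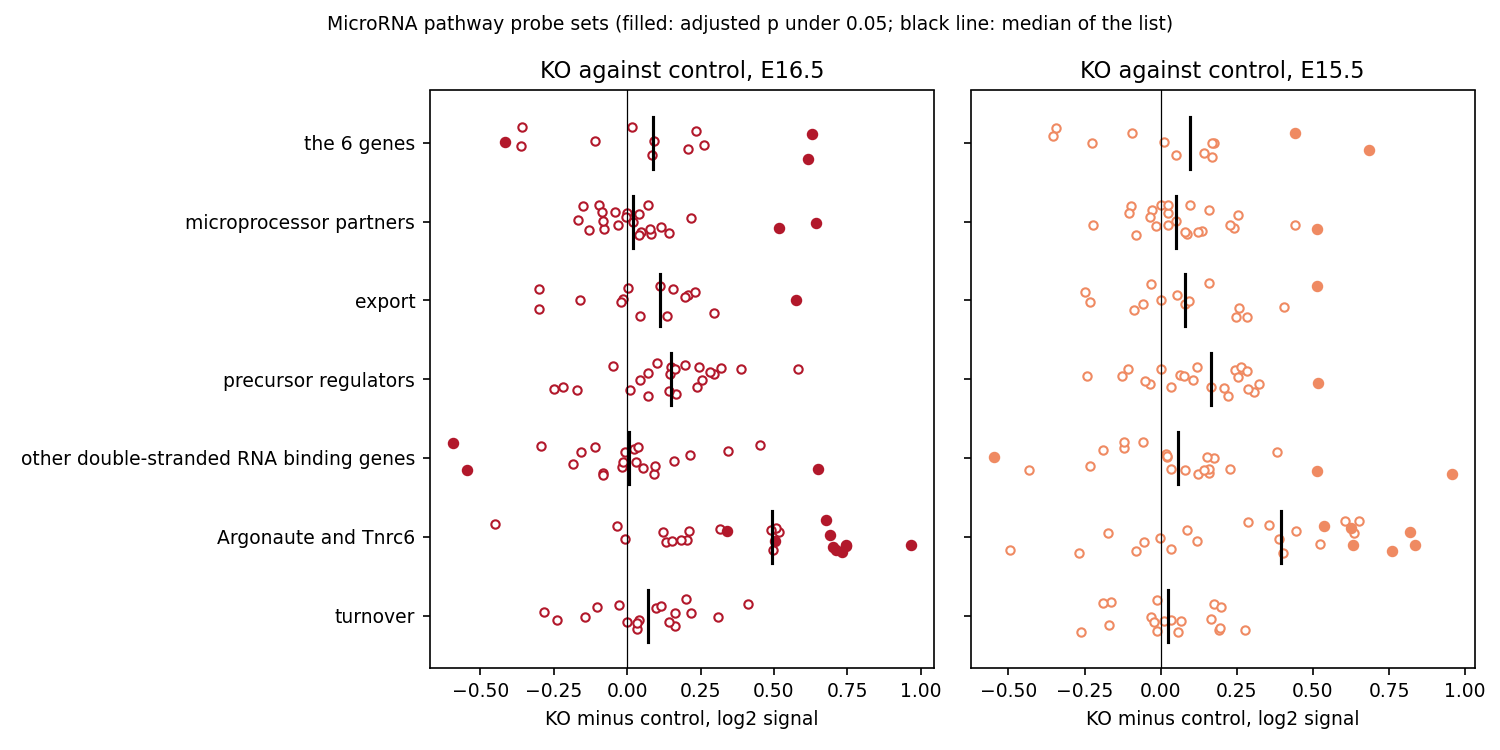
KO minus control (log2) of every tested probe set of the 6 pathway lists and of the 6 members, at E16.5 and at E15.5. Each point is a probe set, filled where it passed at an adjusted p under 0.05, and the bar is the median of the list. The Argonaute and Tnrc6 list has its median at 0.49 and 0.39, above those of the other lists.

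The genes whose pattern over the 16 arrays was most like that of Dicer1 1460571_at, among 13645 genes, were Prkd1 (Pearson r = 0.929), a protein kinase, Psd3 (r = 0.909) and Bmp5 (r = 0.896), a secreted growth factor. With the group means taken off, r was 0.824, 0.769 and 0.745. The arrays share genotype and stage with one another, and these values are a description.

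Marker transcripts of some cell types of the gland differed with genotype. Whether cell numbers or RNA per cell differed was not tested, nor was the part of either in the results for the members. The cortex markers did not move together. Cyp11b1, Hsd3b1 and Mc2r passed as lower at E16.5, and Cyp11a1 and Fdx1 were lower without passing. Nr5a1 was higher by 0.19 at E16.5 and 0.56 at E15.5, and Star by 0.003 and 0.19, without passing. Of 7 adrenal cortex markers, 0 were higher and 3 lower at E16.5, and 2 were lower at E15.5; their summed level (log2 of the summed linear signals) was 15.65 to 16.02 in KO arrays and 16.11 to 16.38 in control arrays at E16.5, and 15.88 to 16.16 in KO arrays and 16.09 to 16.40 in control arrays at E15.5. All 9 macrophage markers were higher at E16.5 and 5 of 9 at E15.5, with summed levels of 13.12 to 13.54 in KO arrays and 11.83 to 12.29 in control arrays at E16.5, and 12.63 to 12.84 in KO arrays and 11.55 to 11.97 in control arrays at E15.5. Of 5 chromaffin markers 2 were higher at E16.5 and 0 at E15.5, with summed levels of 14.30 to 14.63 in KO arrays and 13.76 to 14.14 in control arrays at E16.5, and 13.97 to 14.25 in KO arrays and 13.61 to 14.01 in control arrays at E15.5. Of 5 erythroid markers 0 passed at E16.5 and 1 was higher at E15.5, with summed levels of 10.89 to 12.21 in KO arrays and 9.70 to 12.29 in control arrays at E16.5, and 13.10 to 13.74 in KO arrays and 13.14 to 13.68 in control arrays at E15.5. None of the 5 endothelial, 5 capsule and mesenchyme, 2 kidney, 3 gonad and 3 liver markers tested passed at either stage. The liver markers varied within groups, with summed levels of 8.79 to 14.17 in KO arrays and 10.82 to 13.59 in control arrays at E16.5, and 10.07 to 13.83 in KO arrays and 9.40 to 13.78 in control arrays at E15.5. The tissue label gives adrenal gland, and all 7 adrenal cortex and all 5 chromaffin markers were above the filter. So were 2 of 3 kidney, 3 of 4 gonad and all 3 liver markers, while Umod of kidney and Dazl of germ cells lay below it. Passing the filter therefore does not tell these tissues apart.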

How the data were processed

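The values were log2 signals of 45101 probe sets on 16 arrays, deposited by the authors as a normalized table. The submitters' processing notes name RMA and limma, and neither has a version in the sources used here; a genome build is likewise not given in the sources used here. RMA compresses dim probe sets, which understates their changes. Symbols came from the platform annotation (34945 probe sets with 1 symbol, 932 with several, 9160 with none, 64 control probe sets) and 34741 of them took the current symbol of their gene identifier. Control probe sets and those with several symbols were left out. Of 44105 probe sets, 27838 passed the filter (over the 40th percentile on 4 or more arrays).

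limma 3.58.1 in R 4.3.3 (and the data.table package 1.17.8) fitted 4 group means to all 16 arrays with eBayes, without a replicate block. All tests were two-sided, with Benjamini-Hochberg adjustment over the 27838 and a threshold of 0.05; every adjusted p comes from this fit unless another setting is named. Intervals are 95% intervals. Precision is limited by how many arrays there are. The fit was tested on simulated data with known changes. Whether a pool number stands for a litter is not given in the labels. The same-numbered KO and control pools correlated at -0.27 to 0.43 in their deviations from the group means, with 5 of 8 pairs over 0.1. As the labels do not give the pairing, the main fit did not treat the pools as pairs. A replicate block was run as an alternative.

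Named genes were every probe set of the 6 members, the list members with a probe set that passed at either stage (at most 4 genes per list, by size), and the 3 genes most like Dicer1. Marker lists were adrenal cortex, chromaffin cells, macrophages, erythroid cells, endothelium, capsule and mesenchyme, kidney, gonad and liver, each gene by its brightest probe set. The members, lists and tests were chosen with earlier results of these data known. Neighbouring genes and the ratios of Tarbp2 were chosen after their values were seen. Promoter and hairpin sequences came from RefSeq (GRCm38.p6), and all 6 members matched a promoter by symbol. Alternatives were other filters, 2 other scalings, 1 probe set per gene, array weights, an intensity trend and the compared groups alone. The rest were a test beyond an allowance, a replicate block and arrays left out. Protein sequences were not used here.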

Additional observations from a re-analysis of the deposited data

Results flagged for a closer look

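Each value below lay apart from the other 3 of its group by Dixon's test at the 95% level. The test was run on 60 groups of 4 arrays, those of the 15 member probe sets, and 3 were picked out, which is the number that chance gives at about 1 in 20. Dgcr8 1422981_at, a dim probe set, had 4.947 in KO replicate 3 at E16.5. Drosha 1438440_at had 5.9875 in KO replicate 1 at E15.5. Dgcr8 1455311_at had 8.7759 in control replicate 3 at E15.5. Drosha 1438440_at and Dgcr8 1455311_at did not pass the test in either KO comparison. Dgcr8 1422981_at lay below the filter and was not in that test. In a fit with no filter it did not pass (limma adjusted p = 0.372 at E16.5 and 0.974 at E15.5).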

How the results depend on the processing

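For the 24 member results (12 probe sets at 2 stages), 658 values under other settings gave 604 with the same call and direction, 21 that newly passed, 13 that no longer passed and 20 with a changed sign. Tarbp2 1423616_at at both stages and 1438952_x_at at E16.5 passed under every setting run. Dicer1 1427941_at at E16.5 passed in 9 of 11 settings and in 15 of 16 fits without an array, and Tarbp2 1438952_x_at at E15.5 in 6 of 11 and 11 of 16.

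Probe sets passing at E16.5 (2166) were 4922 without a filter, 1439 with 1 probe set per gene and 8210 with array weights. They were 1137 with the compared groups alone, 861 with the allowance and 1377 to 2517 without an array. At E15.5 (1367) they were 4018, 857 with a stricter filter, 800 with 1 probe set per gene, 2308 with array weights, 534 with the allowance and 630 without both pools numbered 1, and 926 to 1759 without an array. Member probe sets passing at E16.5 (3) were 5 without a filter, 8 with array weights, and 2 to 4 without an array. At E15.5 (2) they were 4 without a filter, 4 with array weights, 1 with 1 probe set per gene, with the allowance, with the replicate block or without both pools numbered 1, and 1 to 4 without an array. The difference of the KO effects gave 0 in each setting. E16.5 against E15.5 in control (2) gave 0 with a stricter filter, with the compared groups alone and without both pools numbered 1 or both numbered 2, 1 with the 75th percentile, 13 with 1 probe set per gene, 1346 with array weights and 0 to 13 without an array. In KO (131) it gave 332 with array weights, 23 with the compared groups alone, 36 without both pools numbered 1 and 39 to 177 without an array.

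With the replicate block, 1869 probe sets, 3 of them of members, passed at E16.5. At E15.5 1060 passed, 1 of them of a member, and Tarbp2 1438952_x_at had an adjusted p of 0.0742. The pool numbers are a hint at most: 2 of 8 same-numbered pools matched best.

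Signs changed only for member values that did not pass. Drosha 1428656_at at E16.5 was -0.0033 with the 75th percentile, -0.0533 with array weights and -0.0011 without both pools numbered 2. Drosha 1438440_at at E16.5 was -0.0071 with quantile normalization, -0.0708 with the 75th percentile and -0.0748 to 0.1006 without an array. Prkra 1448923_at was -0.0366 with array weights, -0.0485 without both pools numbered 2 and -0.05 to 0.1796 without an array at E16.5, and -0.0656 with quantile normalization, -0.0659 with the 75th percentile and -0.0309 to 0.057 without an array at E15.5. Xpo5 1451468_s_at at E16.5 was 0.0103 without both pools numbered 2. Dgcr8 1455311_at at E15.5 was -0.0267, -0.0261 and -0.0301 to 0.1312 in the same settings as Prkra at E15.5. The causes were not tested. Of 915 day and stage-difference values, 54 changed sign and 1 passed. Of the pathway probe sets named, 119 of 970 values no longer passed and none changed sign; these settings were added after the data were seen.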
